A study of Mus musculus with 27 samples.

Results

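Cell cycle genes encode the cyclins, kinases, replication proteins and spindle proteins that carry a dividing cell from one division to the next. A set of 49 of them was followed across mouse ES cell-derived limb bud mesenchyme and mouse embryonic tissues, out of 23279 genes listed in the expression table. They were chosen by name, as the genes of the list that the table holds, and were divided by the phase in which they are best known to act into 16 G1 genes, 13 S genes and 20 G2/M genes. All 49 passed the filter on low values that left 14438 genes for testing.

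RNA was sequenced from 9 groups of 3 libraries each. ES–FLB and ES–HLB were Hand2::mEGFP-positive mesenchymal cells, sorted on culture day 9 from aggregates of a mouse ES cell line of the EB5 background. This line carries a GFP reporter knocked in at the Hand2 locus. Both ES groups were grown with BMP4 and Matrigel and then received LDN193189, Wnt3 and hydrocortisone. The ES–FLB protocol also included retinoic acid, and the ES–HLB protocol the retinoic acid receptor antagonist AGN193109. The embryonic groups were dissected from 3 Slc:ICR mouse embryos and not sorted. They were forelimb and hindlimb buds labelled E10.0 (early FLBs and early HLBs), forelimb and hindlimb buds at E10.5 (E10.5 FLBs and E10.5 HLBs), and branchial arch (BA), cardiac tissue (Ca) and tail bud (TB) at E10.5. The labels give both early groups the same embryonic day, whereas the text of the study places the early HLBs later than the early FLBs. Sorting, culture and mouse strain thus all differ between the ES groups and the embryonic groups and cannot be told apart. Nothing in the labels says that the 3 libraries of a group came from separate cultures or litters, so the p-values measure the spread between these libraries only.

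A dividing cell leaves G1 when D-type cyclins with Cdk4 and Cdk6, and then E-type cyclins with Cdk2, phosphorylate Rb1 and its relatives. This releases E2f transcription factors, which act on the genes of DNA replication, while inhibitors such as Cdkn1b hold the kinases back. In G2 and mitosis, Cdk1 with Ccna2 and Ccnb1, the Polo and Aurora kinases and the spindle checkpoint take over, and many of the genes for them are controlled through a promoter element called the cell cycle genes homology region (CHR). In the young limb bud the mesenchyme proliferates as the bud grows out.

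One E10.5 HLB library, replicate 2, was left out because 7 whole chromosomes had no values in it and 17 of the 49 genes were missing there, which leaves 26 libraries and 2 in the E10.5 HLB group. The 6 early limb bud libraries held an estimated 19642121 to 22142509 reads on genes and the other 20 held 5543760 to 8541971, so that stage and depth cannot be told apart in comparisons with the early limb buds. The ES groups carried all 8 limb bud mesenchyme markers above 1 CPM (counts scaled to 1000000 per library), with summed levels of 1251 to 1576 CPM against 1187 to 1729 CPM in the embryonic limb buds. The 7 heart markers summed to 18353 to 21903 CPM in Ca, the 6 branchial arch markers to 629 to 692 CPM in BA and the 6 tail bud markers to 242 to 289.6 CPM in TB. The summed erythroid, endothelial, ectodermal and epithelial, and pluripotency markers each separated the ES groups from the embryonic limb buds. So did the neural, branchial arch and tail bud markers. The 6 neural markers summed to 29.4 to 42.9 CPM in the ES groups and 6.98 to 20.4 CPM in the limb buds. The branchial arch markers, which include Hand2, summed to 336 to 386 CPM against 207 to 326 CPM. The tail bud markers summed to 1.04 to 6.12 CPM against 20.4 to 60.8 CPM. The 6 erythroid markers summed to 5.48 to 7.53 CPM in ES–FLB and 85.1 to 159.9 CPM in ES–HLB, against 2210 to 6484 CPM in the embryonic limb buds, and none of the 6 was at 0 in a group mean. The 6 endothelial markers summed to 25.4 to 43.7 CPM in the ES groups and 294 to 406 CPM in the limb buds, and the 6 ectodermal and epithelial markers to 95.4 to 196.5 CPM against 237 to 414 CPM. In Ca, which was not sorted, the latter summed to 95.5 to 149.6 CPM. Within that list, Krt5 (64.4 and 63.0 CPM) and Krt8 (38.3 and 28.3 CPM) were not lower on average in ES–HLB than in E10.5 HLBs. Epcam, Krt18 and Trp63 were, and Cdh1 was close, at 44.4 ± 3.30 against 46.7 ± 4.83 CPM (SD). Against the early limb buds, Krt5 was higher on average in ES–FLB (35.6 and 25.5 CPM) and in ES–HLB (64.4 and 52.1 CPM). It was lower in ES–FLB than in E10.5 FLBs (83.1 CPM). The 6 pluripotency markers summed to 15.97 to 23.5 CPM in ES–FLB and 67.1 to 97.7 CPM in ES–HLB, and stayed at or below 2.40 CPM in the limb buds. The part of these other cells in the values below was not tested. In bulk RNA, fewer cells of a kind and less RNA per cell cannot be told apart, and this holds for the share of cells in each phase of the cycle.

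The promoters of 7 of the genes are shown to make the phases visible in sequence, because the G2/M genes and the S genes differ in the elements that precede their starts. Each line gives the 150 bases directly before the transcription start in RefSeq, on the GRCm38.p6 build, written 5′ to 3′ on the strand of the gene. Capitals mark the letters of 3 motifs on either strand: the CHR (TTTGAA or TTCGAA), an E2F site (TTTGGCGC, TTTCCCGC, TTTCGCGC or TTTGCCGC) and the CCAAT box (CCAAT, which reads ATTGG on the other strand). No motif of one kind contains a motif of another. Ccne1 and Cdkn1b are G1 genes, Cdc6 and Mcm6 are S genes, and Cdk1, Cdc20 and Mki67 are G2/M genes.
Ccne1, chr7:38107491-38107640, minus strand: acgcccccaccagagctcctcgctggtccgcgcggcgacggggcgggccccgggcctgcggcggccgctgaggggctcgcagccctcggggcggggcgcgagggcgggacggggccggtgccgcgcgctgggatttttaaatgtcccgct
Cdkn1b, chr6:134920251-134920400, plus strand: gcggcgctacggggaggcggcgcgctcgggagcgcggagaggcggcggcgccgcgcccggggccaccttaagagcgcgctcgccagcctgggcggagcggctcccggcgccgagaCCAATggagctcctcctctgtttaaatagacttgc
Cdc6, chr11:98908001-98908150, plus strand: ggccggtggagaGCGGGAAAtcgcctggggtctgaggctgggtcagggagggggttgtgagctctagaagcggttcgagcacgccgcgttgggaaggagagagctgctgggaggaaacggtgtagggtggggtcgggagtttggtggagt
Mcm6, chr1:128359706-128359855, minus strand: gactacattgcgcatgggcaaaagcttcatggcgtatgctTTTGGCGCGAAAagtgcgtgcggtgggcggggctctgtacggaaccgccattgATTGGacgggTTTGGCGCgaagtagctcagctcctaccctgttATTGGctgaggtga
Cdk1, chr10:69352913-69353062, minus strand: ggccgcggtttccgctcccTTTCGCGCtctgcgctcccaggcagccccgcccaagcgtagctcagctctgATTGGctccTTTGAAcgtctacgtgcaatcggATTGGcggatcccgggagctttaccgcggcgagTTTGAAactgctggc
Cdc20, chr4:118437344-118437493, minus strand: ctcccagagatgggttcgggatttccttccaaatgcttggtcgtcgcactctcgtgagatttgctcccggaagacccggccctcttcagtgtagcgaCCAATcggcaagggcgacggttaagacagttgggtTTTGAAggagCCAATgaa
Mki67, chr7:135716380-135716529, minus strand: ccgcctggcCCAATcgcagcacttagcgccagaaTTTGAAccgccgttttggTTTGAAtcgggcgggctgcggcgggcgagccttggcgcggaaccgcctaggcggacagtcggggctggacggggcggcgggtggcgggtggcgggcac

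The Cdc20 stretch holds a CHR that begins 18 bases before the start, with a CCAAT box at 53 and another at 8. The Cdk1 stretch holds CHR letters at 71 and 15, the inverted CCAAT box at 80 and 48, and an E2F motif at 131. The Mki67 stretch holds CHR letters at 116 and 98 and a CCAAT box at 141. The Mcm6 stretch holds 3 E2F motifs, at 110, 106 and 47, the first of which overlaps the second. Cdc6 has 1 E2F motif at 138, Cdkn1b has 1 CCAAT box at 35, and none of these letters occurs in the 150 bases shown for Ccne1, which says nothing of any factor that may act there. RefSeq promoters of 300 bases, from 250 before to 50 after the start, were matched for 40 of the 49 genes, with 45 promoters in all. CHR letters were in 83.3% of the G2/M promoters, 16.7% of the S promoters and 6.67% of the G1 promoters, and in 19.2% of all 32851 promoters of that length. E2F motifs were in 50% of the S promoters, 33.3% of the G1 promoters and 5.56% of the G2/M promoters, against 2.26% of all promoters. The CCAAT box was in 94.4% of the G2/M, 75% of the S and 53.3% of the G1 promoters, against 37.4% of all promoters. A match of letters is a description of the sequence and was not shown to be a bound site.

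The first question was how the cell cycle genes of the ES–LBs compare with those of the limb buds they are meant to resemble. Most were lower in the ES groups. Against the early FLBs, 39 of 49 genes were lower in ES–FLB and 7 were higher (limma, adjusted p below 0.05), where 38.0% of all genes tested were lower and 38.9% higher. With a change of at least 1.5-fold required as well, 28 were lower and 3 higher, against 22.9% and 27.0% of all genes. The median log2 fold change of the 49 genes was −0.72, beside 0.02 for all genes tested. Against the early HLBs, 38 were lower in ES–HLB and 4 higher, where 36.8% and 38.5% of all genes were, and the median was −0.67. No library is shared between the FLB and HLB comparisons, and 38 of the 39 genes that were lower in ES–FLB were also the 38 that were lower in ES–HLB. The matching overlap for all genes tested was not counted. All 13 S genes and 17 of the 20 G2/M genes were lower in each. Libraries that did not overlap were common in these comparisons. Of the 14438 genes tested, 5726 lay lower in this way and 5907 higher in ES–FLB. In ES–HLB 5464 lay lower and 5767 higher. Among the 49 genes these counts were 39 and 7 in ES–FLB and 38 and 4 in ES–HLB. The G1 genes were divided, with 9 lower and 5 higher of 16 in ES–FLB and 8 lower and 3 higher in ES–HLB.

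**Figure D1:**
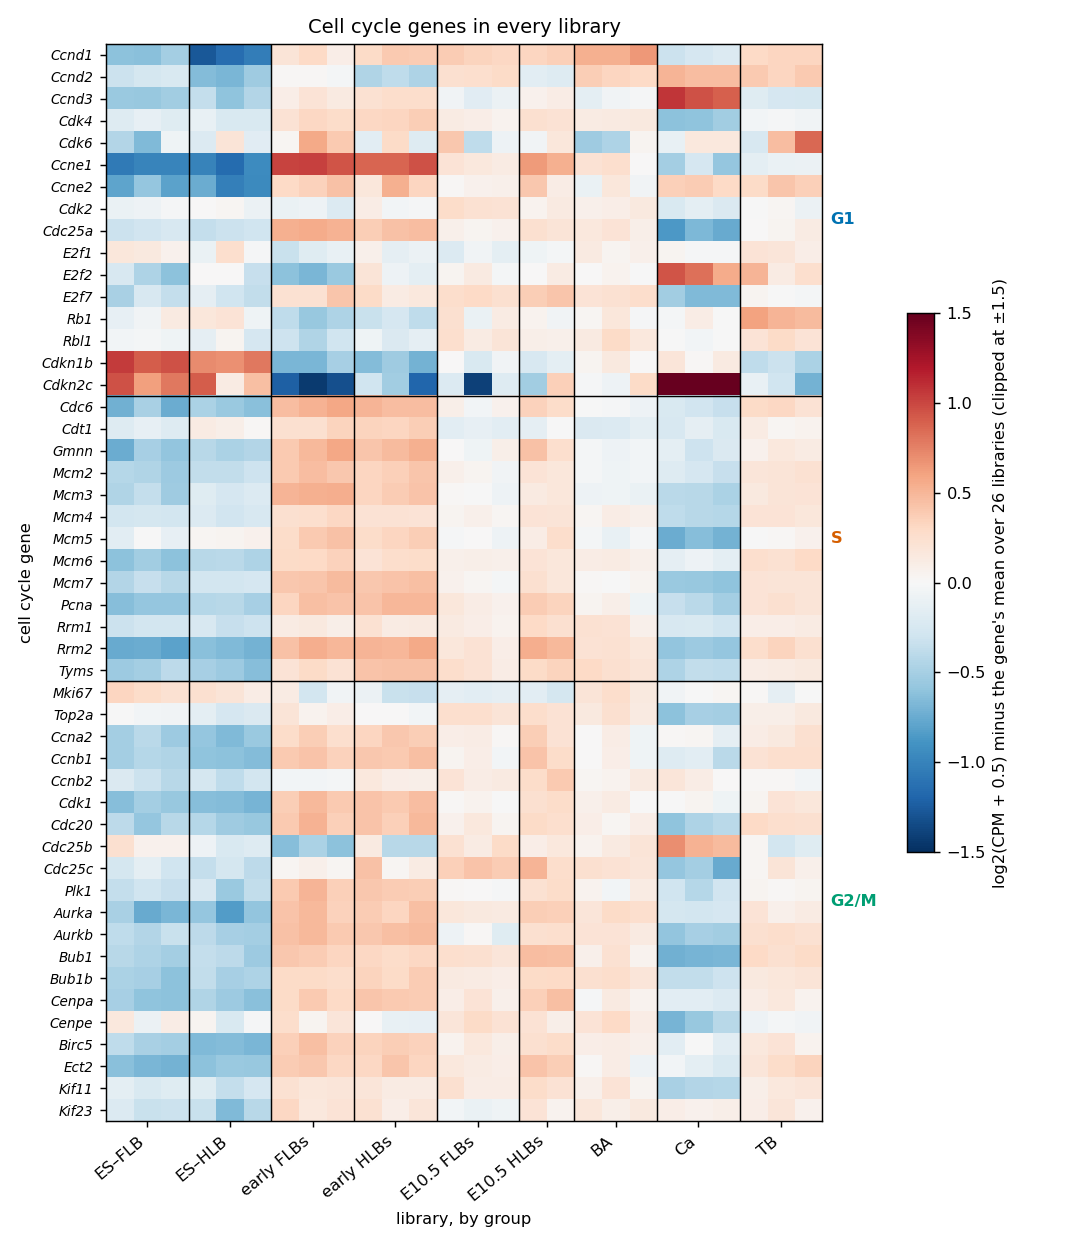
Level of each of the 49 cell cycle genes in each of the 26 libraries, as log2(scaled CPM + 0.5) minus the mean of that gene over all libraries, with colours limited at 1.5 in either direction, rows ordered by class and libraries by group. The columns of ES–FLB, ES–HLB and Ca are mostly below the gene mean in the S and G2/M rows, and the Cdkn1b row is above its mean in all 6 ES libraries.

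Among the G1 genes, the D cyclins come first, since they link growth signals to Cdk4 and Cdk6. Ccnd1 stood at 190.4, 189 and 205 CPM in the ES–FLB libraries, and early FLBs stood at 334, 359.9 and 313 CPM. In ES–HLB it stood at 120.4, 132 and 142 CPM, against 357, 385 and 381 CPM in the early HLBs. No ES library reached the lowest early library, and ES–HLB was below ES–FLB throughout. The fitted difference was −0.78 ± 0.053 on the log2 scale (SE, adjusted p = 9.3e-15, 1.72-fold lower) in the forelimb comparison and −1.51 ± 0.053 (adjusted p = 1.3e-21, 2.84-fold lower) in the hindlimb comparison, both by limma. Exons of a gene on the opposite strand, LTO1, overlap 23.4% of the Ccnd1 exons, and the strand setting of the counting is not given in the sources used here. Ccnd2 and Ccnd3 were lower as well, Ccnd3 by 1.62-fold in ES–FLB and 1.65-fold in ES–HLB and Ccnd2 by 1.21-fold and 1.14-fold. The calls for Ccnd2 were lost when the deposited CPM were used with no further scaling. Cdk4, the kinase partner of the D cyclins, was 1.35-fold lower in ES–FLB (828 ± 20.4 against 1116 ± 33.6 CPM, SD, n = 3 each). Cdk6 was far less abundant, at 6.03 to 10.2 CPM in these 4 groups. It was lower in ES–FLB (log2 −0.71, adjusted p = 0.0083 by limma), a call that was lost without ES–FLB replicate 2 and with unscaled CPM, and in ES–HLB it stood at −0.04 (adjusted p = 0.88).

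The E cyclins, which activate Cdk2 at the entry into S phase, include the gene furthest down of the 49. Ccne1 read 42.6, 44.4 and 44.5 CPM in ES–FLB beside 180.3, 181 and 171 CPM for early FLBs. It read 44.3, 39.7 and 45.99 CPM in ES–HLB beside 163, 163 and 173 CPM for early HLBs. The groups did not overlap, with the highest ES library at 45.99 CPM and the lowest early library at 163 CPM. Its log2 difference was −2.01 ± 0.068 (adjusted p = 2.4e-22, 4.02-fold lower) for ES–FLB and −1.93 ± 0.068 (adjusted p = 1.5e-21, 3.81-fold lower) for ES–HLB, the most negative of the 49 in both comparisons. Ccne2 was 2.13-fold and 2.38-fold lower. Their kinase Cdk2 did not pass the test in either comparison, at 104 ± 2.95 CPM in ES–FLB beside 99.96 ± 4.99 CPM for early FLBs (log2 0.06, adjusted p = 0.28), and at −0.04 (adjusted p = 0.51) in the hindlimb comparison by the same limma fit. Cdc25a, the phosphatase that switches Cdk2 on, was 1.76-fold lower in ES–FLB and 1.68-fold lower in ES–HLB.

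The E2f factors did not move together. E2f7, a repressor of the family, was lower in both, at 44.3 ± 3.83 CPM in ES–FLB beside 70.01 ± 5.25 CPM for early FLBs, and at 47.4 ± 4.08 against 65.2 ± 4.03 CPM for the hindlimb. E2f1, an activator, was higher in ES–FLB by 1.26-fold (adjusted p = 0.00022, limma) and stood at log2 0.10 in ES–HLB (adjusted p = 0.25). E2f2, also an activator, passed in neither comparison. Rb1, which binds E2f factors until it is phosphorylated, was higher in both by 1.37-fold and 1.34-fold, and its relative Rbl1 was higher in ES–FLB alone of these comparisons, by 1.24-fold, with a test of the difference between the forelimb and hindlimb changes at log2 −0.28 (adjusted p = 0.034).

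Both kinase inhibitors among the 49 were higher in the ES groups than in the early limb buds. Cdkn1b (p27), which inhibits cyclin E–Cdk2, read 75.8, 68.7 and 70.9 CPM in ES–FLB beside 22.4, 22.5 and 25.7 CPM for early FLBs. In ES–HLB it read 59.6, 58.8 and 63.5 CPM against 23.1, 24.98 and 22.02 CPM in the early HLBs. All 6 ES libraries were above all 11 embryonic limb bud libraries, which was true of no other gene of the 49 and of 21.4% of all genes tested, and they were above the BA, Ca and TB libraries as well. The difference was 3.01-fold in the forelimb comparison (log2 1.59 ± 0.077, adjusted p = 1.7e-18 by limma) and 2.56-fold in the hindlimb comparison (log2 1.36 ± 0.077, adjusted p = 1.4e-16). Cdkn2c (p18), an inhibitor of Cdk4 and Cdk6, was near the lower end of what these libraries can measure. It read 2.92, 2.21 and 2.56 CPM in ES–FLB beside 0.256, 0.1498 and 0.207 CPM for early FLBs, where 3 reads correspond to 0.135 to 0.143 CPM. It passed the test in both comparisons (adjusted p = 6.8e-08 and 0.00054, limma), and the size of the difference depends on the pseudocount of 0.5.

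**Figure D2:**
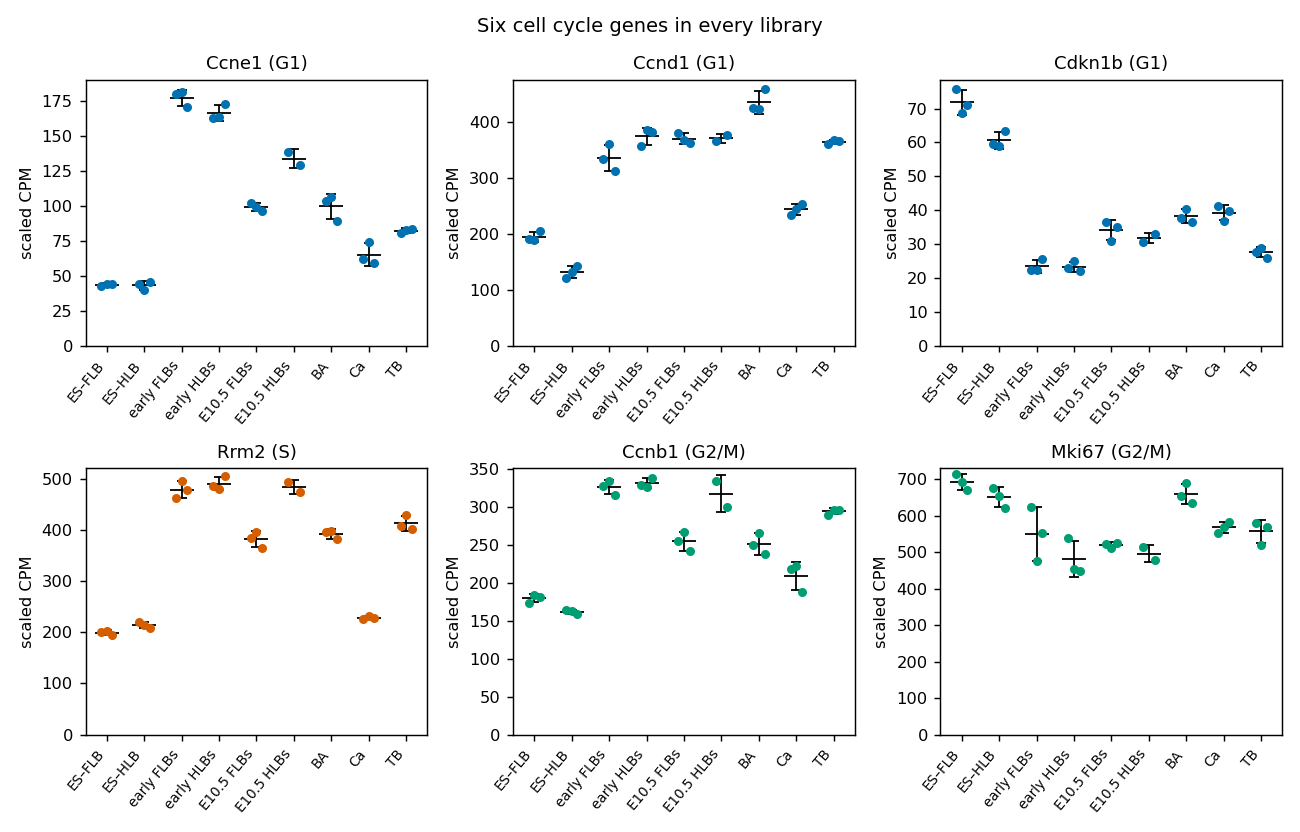
Scaled CPM of 6 cell cycle genes (Ccne1, Ccnd1, Cdkn1b, Rrm2, Ccnb1 and Mki67) in the 9 groups, each axis from 0, with a point for each library, a line at the group mean and bars of 1 SD. Ccne1 lies between 39.7 and 45.99 CPM in the ES libraries and is highest in the early limb buds, while Cdkn1b and Mki67 have their highest group mean in ES–FLB.

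The S genes build and load the replication machinery and supply its nucleotides. Cdc6, Cdt1 and the Mcm2 to Mcm7 helicase subunits license origins, Gmnn restrains Cdt1, Pcna is the polymerase clamp, and Rrm1, Rrm2 and Tyms make deoxynucleotides. Rrm2 read 201, 203 and 194 CPM in ES–FLB beside 462, 496 and 479 CPM for early FLBs. It read 221, 214 and 208 CPM in ES–HLB beside 486, 479.98 and 505 CPM for early HLBs. The ES libraries did not overlap the early ones, and the gene was 2.398-fold and 2.28-fold lower (adjusted p = 4.1e-23 and 4.3e-22, limma). Cdc6 stood at 45.4, 53.8 and 44.8 CPM against 104, 108 and 113 CPM, and was 2.25-fold lower in ES–FLB and 2.04-fold lower in ES–HLB. The 6 helicase subunits were lower together, from 1.38-fold (Mcm5) to 1.97-fold (Mcm3) in ES–FLB. The smallest changes were those of Rrm1 (1.33-fold lower) in ES–FLB and of Cdt1 (1.202-fold lower) in ES–HLB, and the latter call was lost with the deposited CPM used unscaled. Averaged over the 13 S genes on the log2 scale, the libraries lay between 7.35 and 7.53 in the ES groups and between 8.16 and 8.24 in the early limb buds.

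Among the G2/M genes, Cdk1, the kinase that drives mitosis, read 148, 161 and 155 CPM in ES–FLB beside 297, 321 and 302 CPM for early FLBs. Its partner Ccnb1 read 174, 184 and 182 CPM and 327, 335 and 316 CPM in the same groups. The ES libraries of both genes were all below the early libraries. Cdk1 was 1.98-fold lower in ES–FLB and 2.13-fold lower in ES–HLB, and Ccnb1 1.81-fold and 2.05-fold lower, with adjusted p of at most 8.1e-16 by limma. Ccnb1 is among the genes with named pseudogenes, between which reads can be divided. The mitotic kinases fell alongside them, Aurka by 2.09-fold and 2.08-fold, Aurkb by 1.77-fold and 1.88-fold and Plk1 by 1.68-fold and 1.71-fold. So did the checkpoint kinases Bub1 and Bub1b, the centromeric histone Cenpa, the anaphase activator Cdc20, the cytokinesis factors Ect2 and Kif23 and the spindle motor Kif11. The exceptions were few. Cenpe, a kinetochore motor, did not pass in either comparison (log2 −0.10 and 0.01, adjusted p = 0.22 and 0.91, limma). Top2a, the topoisomerase of mitotic chromosomes, was lower by only 1.11-fold and 1.15-fold, and with unscaled CPM it stood at 0.074 in the forelimb comparison and was called in neither.

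Mki67, the proliferation marker also known as Ki-67, went the other way. It read 716, 693 and 672 CPM in ES–FLB beside 623, 475 and 553 CPM for early FLBs. In ES–HLB it read 677, 656 and 622 CPM against 539.98, 456 and 449.6 CPM in the early HLBs. Each ES group lay above its early counterpart with no overlap, although the lowest ES–HLB library (622 CPM) did not exceed the highest early FLB library (623 CPM). The gene was 1.27-fold higher (log2 0.34 ± 0.075, adjusted p = 0.0003) and 1.36-fold higher (log2 0.44 ± 0.075, adjusted p = 1.8e-05) by limma. Mki67 has the CHR letters of the G2/M class in its printed promoter, as do Cdk1 and Cdc20, which were lower in the same libraries. Cdc25b, a phosphatase that activates Cdk1, was 1.63-fold higher in ES–FLB than in early FLBs (53.4 ± 3.81 against 32.6 ± 2.098 CPM). In ES–HLB it was at 43.5 ± 2.53 CPM against 42.05 ± 9.79 CPM (log2 0.07, adjusted p = 0.55).

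With the deposited CPM used unscaled, the median of all genes shifted to 0.22 in the forelimb and 0.18 in the hindlimb comparison, and the median of the 49 genes was then −0.50 in each. The shift was 0.13 in the comparison of ES–HLB with E10.5 HLBs.

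Against the E10.5 limb buds the median change was smaller mainly in ES–FLB, at −0.47 beside −0.72 against the early limb buds. In ES–HLB it was −0.60 beside −0.67, and for the G2/M genes alone −0.73 beside −0.77. The direction was similar for most genes. Among the exceptions, Rbl1 was lower in both ES groups, although it was higher in ES–FLB against early FLBs. Rb1, higher in both against the early limb buds, was called in neither. Cdc25b was lower in ES–HLB and not called in ES–FLB. Cdkn2c was higher in ES–FLB and not called in ES–HLB. These comparisons share the ES libraries with the previous ones and are given beside them, not as a repeat. Against E10.5 FLBs, 40 genes were lower in ES–FLB and 4 higher, where 34.9% and 33.9% of all genes were, and 17 of the lower genes passed 1.5-fold (background 15.3%). Against E10.5 HLBs, 40 were lower in ES–HLB and 3 higher, where 33.4% and 35.3% of all genes were, and 25 of the lower genes passed 1.5-fold (background 15.5%). The medians were −0.47 and −0.60. In total 36 genes were lower in all 4 comparisons of an ES group with its limb bud, and Cdkn1b and Mki67 were higher in all 4. How many of all genes tested went one way in all 4 was not counted. For 34 genes, all 6 ES libraries lay below all 11 embryonic limb bud libraries, where 22.1% of all genes tested did.

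Ccne1 remained the gene furthest down, at 2.25-fold below the E10.5 FLBs (102, 99.1 and 96.7 CPM) and 3.07-fold below the E10.5 HLBs (139 and 129 CPM). Ccnd1 was 1.898-fold lower in ES–FLB and 2.81-fold lower in ES–HLB, and Rrm2 1.91-fold and 2.26-fold lower. Cdkn1b was 2.09-fold and 1.89-fold higher (adjusted p = 1.4e-13 and 5.5e-11, limma), and Mki67 1.33-fold and 1.31-fold higher (adjusted p = 4.7e-05 and 0.00029). Among the S genes, Cdt1 stood at 76.3, 79.7 and 76.04 CPM in ES–FLB and 78.2, 79.7 and 78.1 CPM in E10.5 FLBs, which overlap. In ES–HLB it was 1.11-fold higher than in E10.5 HLBs (adjusted p = 0.019 by limma), a call lost without ES–HLB replicate 1 and without E10.5 HLB replicate 1. Mcm5 did not pass in the forelimb comparison (log2 −0.06, adjusted p = 0.23, limma). Cenpe was lower in both by 1.13-fold and 1.16-fold, and the first call was lost without any one of the 3 E10.5 FLB libraries.

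**Figure D3:**
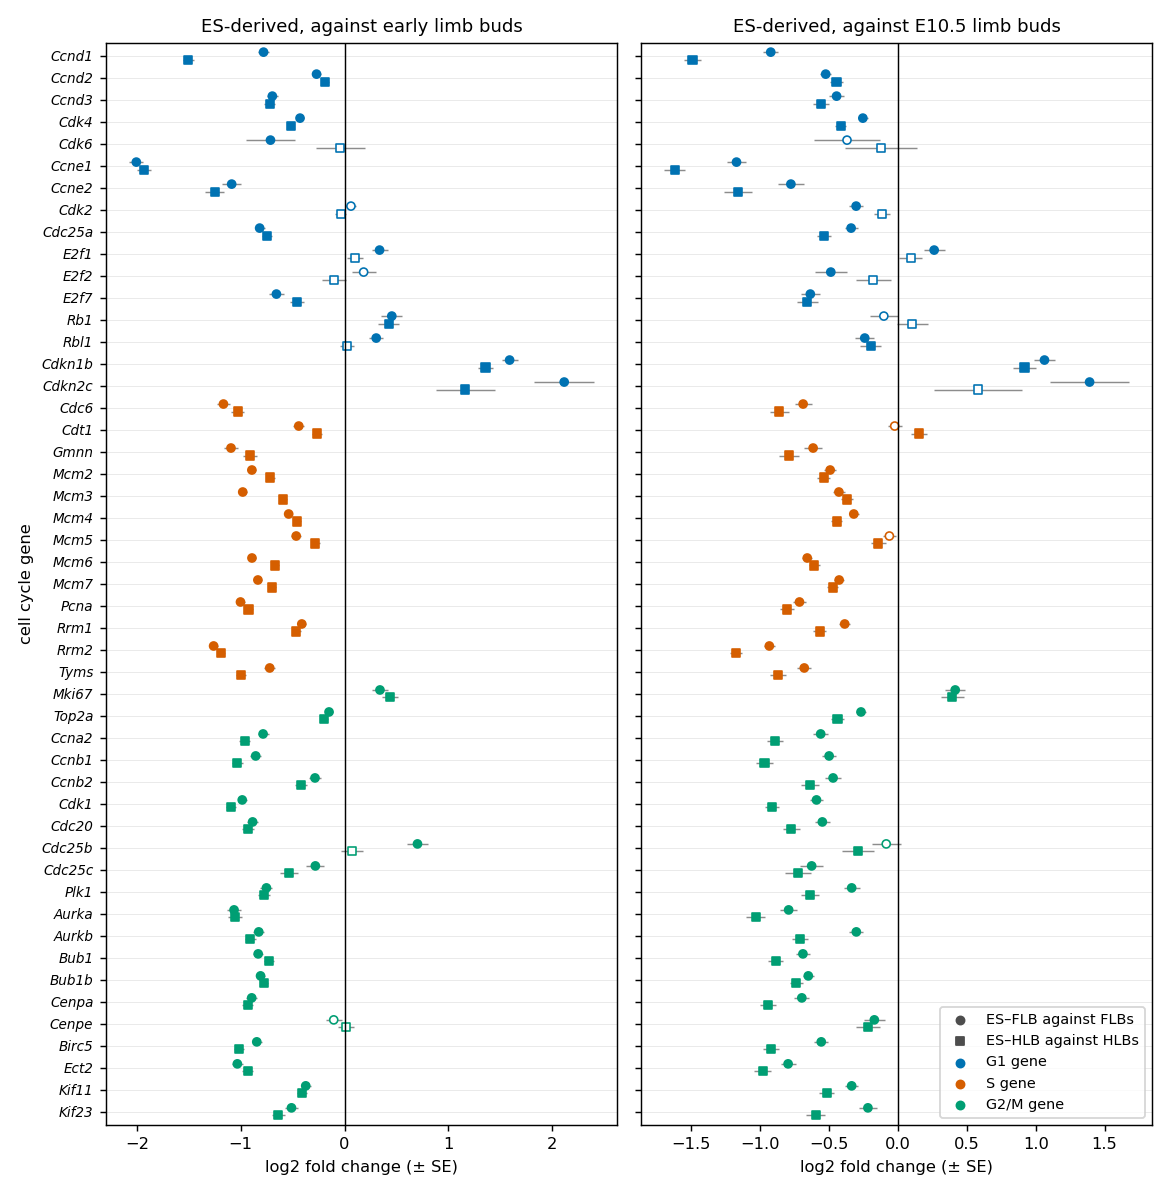
Log2 fold change of each of the 49 genes in ES–FLB against FLBs (circles) and ES–HLB against HLBs (squares), for the early and the E10.5 limb buds, with bars of 1 SE, filled where the adjusted p is below 0.05 and open where it is not. Most S and G2/M genes lie left of 0 in both, Ccne1 lies at −2.01 and −1.93 against the early limb buds, and Cdkn1b, Cdkn2c and Mki67 lie to the right.

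Other genes of the cell cycle, from lists that do not contain the 49, gave the following counts in the same fit. Against the early limb buds, 38.0% of all genes tested were lower and 38.9% higher in ES–FLB, and 36.8% and 38.5% in ES–HLB. Of 34 other S genes, 30 were lower and 2 higher in ES–FLB against early FLBs, and 29 lower and 2 higher in ES–HLB against early HLBs, with medians of −0.64 and −0.67. Of 43 other G2/M genes, 33 were lower and 3 higher in the forelimb and 34 lower and 2 higher in the hindlimb comparison. Of 17 other G1 genes, 10 were lower and 2 higher, and 11 lower and 1 higher. The other inhibitors of the cell cycle gave other counts, with 8 of 11 tested higher in each comparison, and 1 lower in ES–FLB and 2 lower in ES–HLB. Against the E10.5 limb buds 5 of the 11 were higher and 1 lower in ES–FLB, and 8 higher and 2 lower in ES–HLB, where 33.9% and 35.3% of all genes were higher. Btg2, an antiproliferative gene, was at 46.9 ± 7.1005 CPM in ES–FLB beside 4.77 ± 0.959 CPM for early FLBs (log2 3.17). Rbl2 (p130), the pocket protein of resting cells, was counted with the other G1 genes and not with the inhibitors. It was at 43.1 ± 3.59 and 4.97 ± 0.775 CPM in the same groups (log2 3.003). Cdkn1a (p21) was at 66.1 ± 6.17 CPM in ES–HLB and 7.71 ± 1.17 CPM in early HLBs (log2 3.03), and Ccng1, like Cdkn1a a target of p53, at 239.996 ± 16.5 and 38.1 ± 2.65 CPM (log2 2.64). In the other direction, Mycn, a growth regulator, was at 29.4 ± 1.87 CPM in ES–FLB beside 212 ± 9.82 CPM for early FLBs (log2 −2.83). Cdkn1c (p57) was also lower in the ES groups than in the limb buds of E10.5, at 148 ± 7.01 against 505 ± 18.96 CPM in ES–FLB and E10.5 FLBs (log2 −1.77), so the inhibitors did not all lie on one side.

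The second question was whether the forelimb-type and hindlimb-type cultures differ. ES–HLB had 8 genes higher and 8 lower than ES–FLB, where 11.2% and 8.69% of all genes were, and none of the 49 passed the test with a change of 1.5-fold, as 5.79% and 3.75% of all genes did. The classes were unequal, since 7 of 13 S genes were higher and none lower, while 5 of 20 G2/M genes were lower and none higher. The S genes that were higher were Mcm2, Mcm3, Mcm5, Mcm6, Mcm7, Pcna and Cdt1, by 1.09-fold (Mcm2) to 1.19-fold (Cdt1). Mcm3 read 227, 242 and 215 CPM in ES–FLB and 273, 261 and 269 CPM in ES–HLB, with no overlap (log2 0.23 ± 0.041, adjusted p = 7.7e-05, limma). Of the 14438 genes tested, 2717 lay higher in ES–HLB without overlap and 2423 lower. The G2/M genes that were lower were Top2a, Ccnb1, Cdc25b, Birc5 and Kif23, at log2 −0.15 (Ccnb1) to −0.29 (Cdc25b). Ccnd1 showed the widest gap, at 1.48-fold lower in ES–HLB (log2 −0.57 ± 0.053, adjusted p = 9.3e-10), followed by Ccnd2 at 1.28-fold lower. The count of 16 genes fell to 9 without ES–FLB replicate 3 or without ES–HLB replicate 1, and to 10 without ES–HLB replicate 2. Of the S genes, Mcm2, Mcm5 and Pcna were lost under such omissions, and Mcm5 also with unscaled CPM. The pluripotency markers, given above, were also higher in ES–HLB than in ES–FLB, and their part in these values was not tested.

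Whether the step from limb bud to culture differs between the limbs was tested directly as an interaction. It was called for 9 of 49 genes, 5 toward a higher value in the hindlimb and 4 toward a lower value, where 11.5% and 8.59% of all genes were, and with unscaled CPM for 2 and 8. Of the 9 genes called, Ccnd1 had the widest value, −0.73 ± 0.075 on the log2 scale (adjusted p = 1.1e-08, limma), because it was 2.84-fold lower in the hindlimb and 1.72-fold lower in the forelimb comparison. Cdc25b stood at −0.63 ± 0.15 (adjusted p = 0.0025). Mcm3 stood at 0.39 ± 0.059 (adjusted p = 8.9e-06), its drop being 1.97-fold in the forelimb and 1.51-fold in the hindlimb comparison. The values for Mcm2, Mcm5 and Mcm7 were called at 0.14 to 0.18 and were lost with unscaled CPM, and the count was 5 without ES–HLB replicate 3, without early FLB replicate 2 or without early HLB replicate 1.

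Forelimb and hindlimb buds of the embryo were compared at each stage. At the early stage 5 genes were higher and 4 lower in HLBs, where 8.55% and 10.4% of all genes were, with a median of 0.00, and with unscaled CPM the counts were 10 and 2. Of the genes called, E2f2 had the largest increase, from 15.2, 14.4 and 15.8 CPM in early FLBs to 26.99, 22.3 and 21.2 CPM in early HLBs (1.53-fold, adjusted p = 0.00018 by limma). Ccnd2 had the largest decrease, from 449, 449 and 434 CPM to 323, 341 and 320.3 CPM (1.35-fold lower, adjusted p = 6.6e-10). The count fell from 9 to 5 without early FLB replicate 1.

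At E10.5 the difference had one direction. In HLBs 28 genes were higher than in FLBs and 1 was lower, where 9.91% and 11.0% of all genes were, and none passed with a change of 1.5-fold, as 1.09% and 5.76% of all genes did. They were 10 of 13 S genes, 14 of 20 G2/M genes and 4 of 16 G1 genes. Of the genes called, Ccne1 had the largest value, from 102, 99.1 and 96.7 CPM in FLBs to 139 and 129 CPM in HLBs (log2 0.43 ± 0.076, adjusted p = 0.00015, limma). Rrm2 went from 384, 396 and 365 CPM to 495 and 475 CPM (log2 0.35), and Bub1 from 189, 187 and 180.2 CPM to 218 and 217 CPM (log2 0.23). None of these 3 genes overlapped between the groups, and of the 14438 genes tested 3342 lay higher in HLBs without overlap and 3174 lower. Ccnd2 was the one gene that was lower, from 521, 528 and 541 CPM to 397 and 389 CPM, and it was also lower in the hindlimb group at the early stage and in culture, at log2 −0.44, −0.43 and −0.35 in these 3 comparisons, which share no library. Only 2 libraries carry the E10.5 HLB side. Without replicate 1 of them 13 genes were called, without replicate 3 there were 19, and with unscaled CPM 17, of which 15 were higher. Among other cell cycle genes, 19 of 34 S genes and 18 of 43 G2/M genes were higher in E10.5 HLBs and none of either list was lower.

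From the early stage to E10.5, 29 genes were lower and 12 higher in FLBs, where 30.8% and 28.3% of all genes were, and with unscaled CPM 17 were lower and 17 higher while the median of all genes shifted to 0.13. The lower genes included 11 of 13 S genes and 13 of 20 G2/M genes. Ccne1 was 1.78-fold lower (log2 −0.83 ± 0.068, adjusted p = 4.2e-12, limma) and Mcm3 1.47-fold lower. Bub1 and Bub1b were called lower at −0.14 and −0.16, and with unscaled CPM they stood at 0.025 and 0.0092. The higher genes included Cdkn1b at 1.44-fold, Rb1 at 1.47-fold, Rbl1 at 1.46-fold, E2f2 at 1.59-fold and Cdc25b at 1.73-fold. In HLBs 11 genes were lower and 10 higher, where 16.4% and 12.6% of all genes were, and with unscaled CPM 6 and 12. Without E10.5 HLB replicate 1, E10.5 HLB replicate 3 or early HLB replicate 3 the HLB count of 21 was 10, 9 or 12. Cdkn1b was higher there too, at 1.36-fold (adjusted p = 0.00019), and Cdt1 was the gene furthest down, at 1.34-fold lower.

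**Figure D4:**
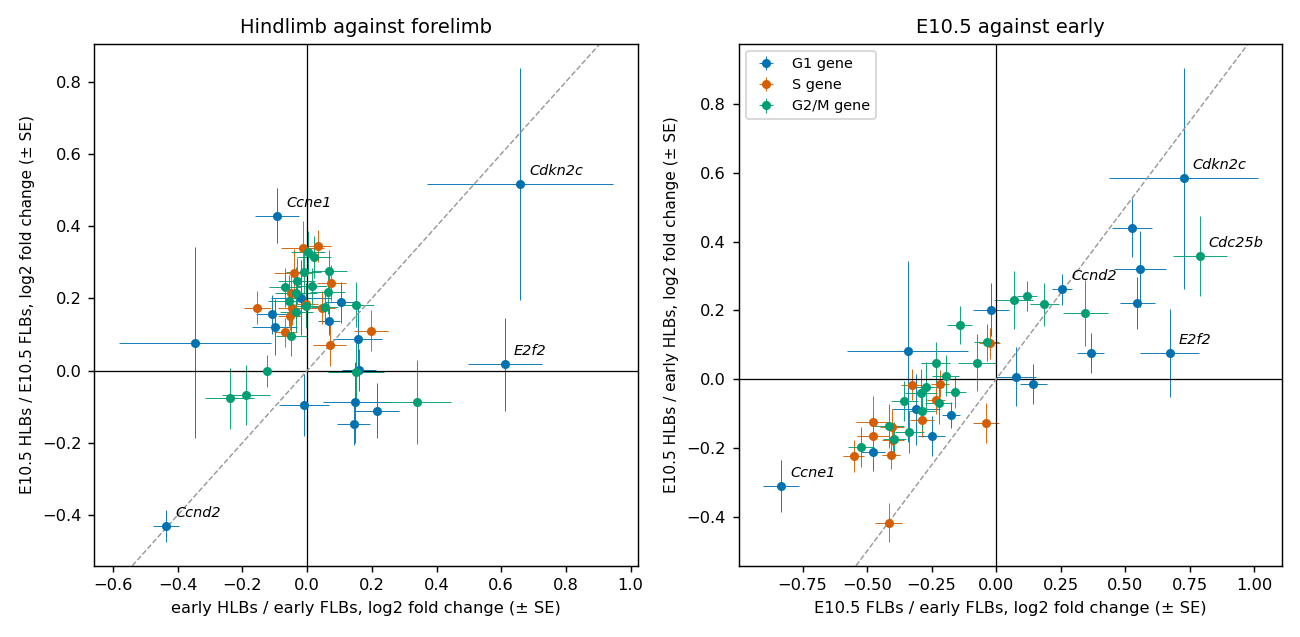
Log2 fold changes of the 49 genes among embryonic limb buds with bars of 1 SE. The left panel sets HLB over FLB at the early stage (x axis) against the same at E10.5 (y axis), and the right panel sets E10.5 over early in FLBs (x axis) against the same in HLBs (y axis), with a dashed line of equality. Most points of the left panel lie above 0 on the y axis, with Ccne1 at 0.43, and Ccnd2 is negative on both axes.

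The difference between the 2 stage changes was called for 20 genes, 17 of them less negative or more positive in HLBs and 3 the other way, where 10.7% and 9.96% of all genes were. With unscaled CPM it was called for 4 and 5, and without E10.5 HLB replicate 1 for 9 in all. The S genes gave 9 of the 17. Ccne1 differed by 0.52 ± 0.10 (adjusted p = 0.0004, limma), as it was 1.78-fold lower with stage in FLBs and 1.24-fold lower in HLBs. E2f2 differed by −0.59 ± 0.17 (adjusted p = 0.013), being 1.59-fold higher with stage in FLBs and at log2 0.08 in HLBs, a call lost without E10.5 HLB replicate 1 or early HLB replicate 1. With the later day that the study gives for the early HLBs, the interval to E10.5 is shorter in HLBs than in FLBs. In the early comparison of the limbs, and in the difference between the stage changes, limb and embryonic day then cannot be told apart.

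The other E10.5 tissues were compared with the mean of the E10.5 FLBs and HLBs. Ca stood apart, with 36 genes lower and 8 higher, where 38.8% and 38.0% of all genes were, and 17 lower and 3 higher with a change of 1.5-fold (background 19.6% and 26.3%). The median was −0.44, beside which 12 of 13 S genes and 17 of 20 G2/M genes were lower. Ca had the lowest mean of the 7 embryonic groups for 35 of the 49 genes. Bub1 read 95.6, 97.7 and 98.6 CPM in Ca, 2.06-fold below the limb buds (log2 −1.04 ± 0.044, adjusted p = 3e-20, limma). Rrm2 read 226, 233 and 227 CPM and was 1.88-fold lower, and Cdk4 was 1.67-fold lower. All Ca libraries of these genes were below all E10.5 limb bud libraries, as was the case for 4766 of the 14438 genes tested. Ca was also the tissue with the highest mean of Ccnd2, Ccnd3, E2f2, Cdkn2c and Cdc25b among all 9 groups. Ccnd3 read 538, 496 and 477 CPM, 1.97-fold above the limb buds (log2 0.98 ± 0.047, adjusted p = 7.6e-19), and Cdkn2c read 5.09, 4.79 and 5.601 CPM (log2 2.02). The erythroid markers summed to 22945 to 33524 CPM in Ca and the endothelial markers to 906 to 975 CPM, the highest of all groups for both lists, and their part in the Ca values was not tested.

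BA and TB differed from the limb buds in fewer genes and by less than 1.5-fold in all 49, although 8.69% of all genes were higher and 3.62% lower by that measure in BA, and 12.2% and 6.43% in TB. In BA 15 genes were lower and 4 higher, where 15.6% and 17.1% of all genes were, and with unscaled CPM 11 and 7. Mki67 was 1.299-fold higher (655, 691 and 635 CPM, adjusted p = 0.00016, limma), and Ccnd1 1.17-fold higher (424, 422 and 458 CPM), its highest mean of the 9 groups. Of the genes called, Ect2 had the most negative value, at log2 −0.25. In TB 13 genes were lower and 9 higher, where 22.5% and 23.5% of all genes were, and with unscaled CPM 10 and 14. Rb1 was 1.398-fold higher (log2 0.48 ± 0.09, adjusted p = 4.2e-05) and Ccne1 1.398-fold lower (80.5, 83.3 and 83.5 CPM). Of the S genes, Mcm2, Mcm3, Mcm6, Mcm7 and Cdt1 were higher in TB by 1.06-fold to 1.13-fold, and Tyms was lower.

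The D cyclins were set against each other per kilobase of exon, since they differ in length. Lengths were the merged exons of all GENCODE transcripts of a gene, 4.709 kb for Ccnd1 and 9.409 kb for Ccnd2. The order of the genes depends on these lengths, and the opposite-strand overlap of the Ccnd1 exons applies here too. In E10.5 FLBs, Ccnd1 was at 78.6, Ccnd2 at 56.3 and Ccnd3 at 27.2 CPM per kb. As shares of the 3 together, Ccnd1 made up 41.2% in ES–FLB and 35.1% in ES–HLB, against 47.2% in early FLBs and 53.3% in early HLBs. Ccnd2 made up 38.96% and 38.4% in the ES groups and 31.3% and 23.4% in the early limb buds. In ES–HLB, Ccnd2 thus had a larger share than Ccnd1, whereas in all 4 embryonic limb bud groups Ccnd1 had the largest share of the 3. In Ca, Ccnd1, Ccnd2 and Ccnd3 held 29.6%, 37.5% and 32.8%, and Ccnd3 held 15.2% in TB and 15.5% in BA. These shares are given as values, with no test.

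**Figure D5:**
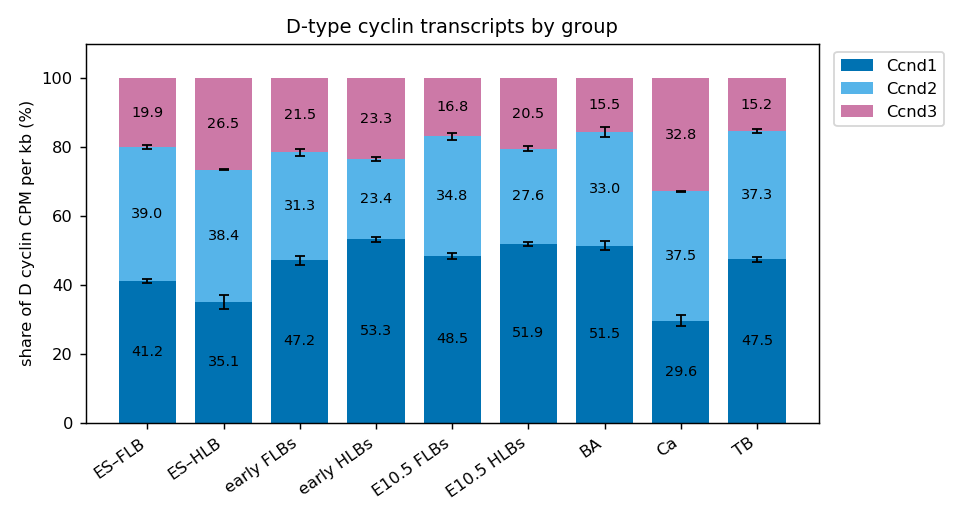
Share of Ccnd1, Ccnd2 and Ccnd3 in their summed CPM per kilobase of exon, in percent, as stacked bars from 0 to 100 for the 9 groups, each bar the mean over libraries with bars of 1 SD on the lower 2 segments. The Ccnd1 segment is smallest in Ca (29.6%) and ES–HLB (35.1%) and largest in early HLBs (53.3%).

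Across the 9 groups the 49 genes varied unequally. The ratio of the highest to the lowest group mean was 1.296 for E2f1, 1.35 for Cdk2 and 1.44 for Mki67, the 3 steadiest genes. It was 4.098 for Ccne1, 3.303 for Ccnd1 and 3.07 for Cdkn1b, the widest apart from Cdkn2c, whose lowest group is near the floor. Among the embryonic groups alone the ratio for Ccne1 was 2.72 and for Cdkn1b 1.68. The highest group mean fell in the early FLBs for 16 genes, in the early HLBs for 10 and in the E10.5 HLBs for 8, and both ES groups were the lowest of the 9 for 22 genes. Per kilobase, the most abundant of the 49 in E10.5 FLBs was Cdk4, at 304 CPM per kb, and the least abundant were Cdk6 and Cdkn2c, at 0.573 and 0.278 CPM per kb. Cdk4 shares 19.7% of its exon bases with Tspan31 on the opposite strand. The order of the group means for Ccne1 ran from the ES groups (43.3 and 43.8 CPM) through Ca (65.3), TB (82.4), E10.5 FLBs (99.4), BA (99.8), E10.5 HLBs (134) and early HLBs (166) to early FLBs (178). The neighbours ES–HLB and ES–FLB, E10.5 FLBs and BA, and early HLBs and early FLBs overlapped in their libraries.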

How the data were processed

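RNA sequencing values of 9 groups of mouse samples were taken from the deposited table. Per the labels and the study's methods, the authors prepared stranded mRNA libraries, read single ends, aligned them with HISAT2 2.0.4 to mm10, counted with Cuffdiff (Cufflinks 2.1.1 is also named) and used edgeR 3.16.2, with reads checked in FastQC 0.11.5. The strand setting of the counting is not given in the sources used here. The deposited values are CPM, since each column sums to 1000000, although they are deposited as count data. They were treated as CPM and no count test was run. The low values step in units of 1 read, from which depth was estimated: 5543760 to 22142509 reads on genes per library, with 89.3% to 99.1% of values falling on whole reads.

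Libraries were scaled by an unweighted trimmed mean of log ratios (30% of log ratios and 5% of intensities trimmed), and all levels given as CPM are scaled CPM. Genes with at least 1 CPM in at least 3 libraries were kept, 14438 of 23279. All 26 libraries were fitted in one model of 9 groups on log2(scaled CPM + 0.5) with limma 3.58.1 (trend, robust) in R 4.3.3. Fold changes are on that scale, which understates changes of low genes. A call is an adjusted p (Benjamini-Hochberg over all genes tested) below 0.05, and a second rule asks for 1.5-fold as well. There were 12 comparisons and 2 tests of a difference between comparisons. The scripts (Python 3.11.15, numpy 2.4.6, pandas 2.3.3, matplotlib 3.10.9) were tested on simulated data.

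All 49 genes could be named in every comparison. Genes of 4 further cell cycle lists were named where called, changed by 1.5-fold and not overlapping between libraries, at most 3 in each direction per comparison. The 49 genes and all lists were chosen with earlier results of these data known. Replicate numbers were not used as a block, since deviations of same-numbered libraries correlated at −0.089 to 0.10 and no shared origin is stated. The alternatives were other scaling, pseudocounts, filters and limma settings, the compared groups alone, the replicate block, the omitted library kept, and leaving out each library in turn.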

Additional observations from a re-analysis of the deposited data

Results flagged for a closer look

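The step from early limb bud to ES culture differed between forelimb and hindlimb for 9 of the 49 genes by the interaction test in limma, 5 toward a higher and 4 toward a lower value in the hindlimb, which is close to the 11.5% and 8.59% of all genes. On the log2 scale the hindlimb step minus the forelimb step was −0.73 for Ccnd1 (adjusted p = 1.1e-08), −0.63 for Cdc25b (adjusted p = 0.0025) and 0.39 for Mcm3 (adjusted p = 8.9e-06).

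The change from the early stage to E10.5 differed between FLBs and HLBs for 20 genes by the same kind of test, 17 toward a higher and 3 toward a lower value in HLBs, where 10.7% and 9.96% of all genes were. The count was 9 with unscaled CPM and 9 without E10.5 HLB replicate 1. The study gives the early HLBs a later embryonic day than the early FLBs, so the intervals may be unequal. HLBs minus FLBs gave 0.52 for Ccne1, 0.35 for Gmnn, 0.33 for Mcm3, 0.33 for Aurkb, 0.31 for Rrm2 and 0.31 for Cdc6, and negative values of −0.59 for E2f2 and −0.33 for Rbl1. These 8 are the genes whose difference was called and was 0.3 or more on the log2 scale. Depth separates the early from the E10.5 libraries in both limbs and cannot be told apart from stage.

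In the E10.5 HLB library that was left out, 32 of the 49 genes stood above the level of 3 reads, among them Rrm2 at 761, Ccnb1 at 505 and Top2a at 1265 CPM as deposited. These values are scaled to the total of a library that lacks 7 chromosomes and entered no comparison.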

How the results depend on the processing

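Of 3837 values of single genes under the alternatives other than leaving out a library, 3699 kept their direction and their side of the threshold, 135 were no longer called and 3 reversed. The 3 reversals came with the deposited CPM used unscaled: Top2a in ES–FLB against early FLBs at 0.074, and Bub1 and Bub1b from early to E10.5 FLBs at 0.025 and 0.0092. Leaving out each library in turn gave 2400 of 2661 unchanged, 261 no longer called and none reversed. Counts of genes called out of 49 moved by over 1.5 times in 3 cases: unscaled CPM gave 17 in place of 29 for E10.5 HLBs against E10.5 FLBs and 9 in place of 20 for the difference between the stage changes, and limma without trend and robust gave 10 in place of 16 for ES–HLB against ES–FLB. The cause was not tested.

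With each library left out in turn, the counts ran from 45 to 46 for ES–FLB against early FLBs, 42 to 43 for ES–HLB against early HLBs, 43 to 44 for ES–FLB against E10.5 FLBs, 39 to 41 for ES–HLB against E10.5 HLBs, 9 to 15 for ES–HLB against ES–FLB, 5 to 10 for early HLBs against early FLBs, 13 to 25 for E10.5 HLBs against E10.5 FLBs, 39 to 41 and 9 to 23 for the stage change in FLBs and HLBs, 41 to 44 for Ca, 16 to 20 for BA and 18 to 23 for TB, and 5 to 8 and 9 to 23 for the differences between the culture steps and between the stage changes. Libraries that moved a count by over 1.5 times are named beside the results.

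With the replicate number as a block, the counts were 46, 42, 44 and 43 in the 4 comparisons of ES groups with limb buds, 16 for ES–HLB against ES–FLB, 10 and 30 for HLBs against FLBs at the early stage and E10.5, 41 and 18 for the stage changes, 44, 19 and 24 for Ca, BA and TB, and 8 and 25 for the 2 differences. The numbers were not shown to pair the libraries. The edgeR and DESeq2 alternatives were not run, because not all values could be turned back into whole reads. Depth limits Cdkn2c, whose level in the early FLBs is close to that of 3 reads, and the 2 remaining E10.5 HLB libraries limit every comparison that uses them.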

Other observations

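The lists of other cell cycle genes extended the E10.5 tissue comparisons. In Ca, 30 of 34 other S genes and 38 of 43 other G2/M genes were lower than in the E10.5 limb buds, and none and 4 were higher, where 38.8% of all genes were lower and 38.0% higher. The other inhibitors went up more often than down in Ca, with 7 of 11 higher and 3 lower. Cdkn1c (p57), an inhibitor of cyclin-dependent kinases, was at 1447 ± 102 CPM in Ca, against 505 ± 18.96 CPM in E10.5 FLBs and 284 ± 18.9 CPM in E10.5 HLBs (SD). Hells, a chromatin remodeller of replicating cells, was −1.26 on the log2 scale and Skp2, which marks Cdkn1b for degradation, was −1.09. In TB, Btg2 was 2.35 and Myc 1.24 on that scale relative to the E10.5 limb buds, while Cdkn1c was −0.77.

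Growth regulators changed with stage in both limbs. Myc fell by 1.51 in FLBs and by 1.37 in HLBs on the log2 scale from the early stage to E10.5, and Mycn by 1.13 and 0.84. Cdkn1c went up over the same interval, from 145 ± 5.37 to 505 ± 18.96 CPM in FLBs and from 159 ± 14.8 to 284 ± 18.9 CPM in HLBs. Stage and depth cannot be told apart here.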
